A study of Mus musculus with 24 samples.

Results

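The 20 cytosolic aminoacyl-tRNA synthetases, the multisynthetase complex scaffolds Aimp1 and Aimp2, and 10 genes of the integrated stress response were followed in mouse CD4+ T cells stimulated through CD3 and CD28. The 32 genes were taken by name as a functional group, by a rule that uses no measured value, out of 54446 gene identifiers in the count table, and each name was matched to a mouse Ensembl identifier (Mars1 under its older symbol, Mars). The group was nevertheless chosen with earlier results of these data known. All 32 passed the filter on low counts. In WT cells 19 of the 20 synthetases and both scaffolds had higher mRNA at 24 h of stimulation than at 0 h, whereas Ppp1r15a, a feedback gene of the stress response, fell to a small fraction of its 0 h level. The stress response genes did not move as a block. Asns rose strongly, Atf4 rose slightly and Ddit3 and Trib3 fell. Between genotypes, 8 members differed at 0 h or 6 h, among them Chac1, Asns, Cebpb and Atf5, which were higher in Aim2-/- cells, but none of these differences was called under every alternative analysis. Some of those analyses left out a WT mouse but kept a mouse labelled WT whose Aim2 level failed the check of the labels. At 0 h 6 of the 32 were called, beside 5.23% of the 15325 genes tested. At 6 h 5 of the 32 were called, beside 15.8%, so the share of members was close to that of all genes there.

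Each aminoacyl-tRNA synthetase joins an amino acid to its matching tRNA and so supplies the ribosome with charged tRNA. In animal cells several synthetases sit in a large complex held together by the scaffolds Aimp1, Aimp2 and Eef1e1. Uncharged tRNA activates the kinase GCN2 (Eif2ak4), which phosphorylates eIF2alpha, as do the kinases PERK, PKR and HRI under other stresses. Phosphorylated eIF2alpha lowers general translation while it favours translation of the mRNA of the transcription factor ATF4. ATF4 and its partners of the C/EBP family then drive genes of amino acid synthesis and uptake, tRNA charging and feedback control. Resting T cells are small and make little protein, and activation through the T cell receptor is known to start cell growth and a large rise in protein synthesis. Because ATF4 is controlled largely at translation, its mRNA level is not a measure of its protein.

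Splenic CD4+ T cells came from mice on the C57BL6 background, of the genotypes WT and Aim2-/-, the latter lacking the cytosolic DNA sensor AIM2. Cells of WT mice 1, 3 and 4 and of Aim2-/- mice 1, 2 and 4 were sampled before stimulation (0 h, labelled control) and 3 h, 6 h or 24 h after antibodies against CD3 and CD28 were added, giving 24 libraries in 8 groups of 3. Each mouse was sampled at all 4 times, and its age is not given in the sources used here. The study describes the Aim2-/- mice as deficient in AIM2 and names no restriction to T cells, so cells other than T cells are taken to lack AIM2 too. No cells cultured for 3 h to 24 h without stimulation were included, so time in culture and stimulation cannot be told apart. Values of WT mice are given below in the order 1, 3, 4 and those of Aim2-/- mice in the order 1, 2, 4, as CPM, a gene's counts relative to the total of its library after TMM scaling. A log2 change is given with ± its standard error from the edgeR fit.

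Library totals lay between 19715161 and 21627018 counts, so the depth was alike and 3 counts correspond to about 0.15 CPM. The check of the labels failed for the mouse labelled WT 1. The Aim2 level, in mouse order, read 21.5, 75 and 67.5 CPM over the WT mice at 0 h, 17, 50.7 and 52.3 CPM at 3 h, 11.5, 33 and 32.5 CPM at 6 h and 5.57, 34 and 38.7 CPM at 24 h. Over the Aim2-/- mice it read 15.7, 20.1 and 19 CPM, then 14.6, 14.9 and 15.1 CPM, then 11.4, 10.7 and 8.18 CPM, and finally 6.55, 7.15 and 5.28 CPM. The mouse labelled WT 1 thus lay with or near the Aim2-/- mice at every time. Results that rest on it are given with and without its 4 libraries. As for the tissue, the summed level of 6 CD4 T cell markers was 2264 to 3556 CPM in every library, and that of the CD8 T cell markers Cd8a and Cd8b1 did not exceed 15.65 CPM. Markers of other blood cells were also present, and several were higher in Aim2-/- cells, as given below beside the genotype comparison. In bulk libraries a different share of a cell type and a different amount of RNA per cell cannot be told apart.

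ATF4 bound with a C/EBP protein recognises the C/EBP-ATF response element. Its core was searched as TGATGNAAN on both strands in a RefSeq promoter window. This window reached from 250 bases before to 50 bases after each gene's RefSeq start. The window was given for 25 of the 32 members, and 9 of the 25 held the core, 5 of the 13 matched synthetases and 4 of the 10 stress response genes, against 4.5% of the windows of 27025 genes. The E box CACGTG, bound by MYC, was in 5 of the 25 windows (Aars, Farsb, Iars, Tars and Nupr1) against 8.09% of all, and the cyclic AMP response element TGACGTCA was in 1 window, that of Ppp1r15a, against 2.03%. The 3 motifs are separate strings of letters, and Aars, Iars, Tars and Nupr1 held both the C/EBP-ATF core and the E box. A match describes the letters of the window only. A stretch with the C/EBP-ATF core is printed for each of these 9 members because it shows the core, its surroundings and its strand. Each is read 5′ to 3′ on the strand of its gene (GRCm38.p6), with the core in capitals and 10 bases on either side. A core on the opposite strand therefore reads as its reverse complement, which ends in CATCA. Those of Asns and Yars lie on the strand of the gene and the other 7 on the opposite one.
Aars: agcgggtcacTTTTCATCAgagcgctctg
Asns: cccagccacaTGATGAAACttcccgcacg
Chac1: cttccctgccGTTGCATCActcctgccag
Gars: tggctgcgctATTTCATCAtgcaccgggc
Iars: cactgtcagtATTGCATCAcctccagacg
Nupr1: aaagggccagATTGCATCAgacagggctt
Tars: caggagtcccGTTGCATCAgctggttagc
Trib3: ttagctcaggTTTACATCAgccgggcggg
Yars: cgagctcagcTGATGCAACccgacgggac

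Positions are as follows, with the distance in bases of the first base of the core from the gene's RefSeq start. That start can differ from the end of the gene in the GENCODE coordinates printed below, as it did for Aars and Asns. The synthetase stretches were Aars chr8:111033840-111033868 (gene on the plus strand, core from 8), Gars chr6:55037960-55037988 (gene on the plus strand, core from -31), Iars chr13:49682126-49682154 (gene on the plus strand, core from 6), Tars chr15:11399656-11399684 (gene on the minus strand, core from -16), Yars chr4:129189896-129189924 (gene on the plus strand, core from 3). The stress response stretches were Asns chr6:7693214-7693242 (gene on the minus strand, core from -23), Chac1 chr2:119351038-119351066 (gene on the plus strand, core from -194), Nupr1 chr7:126625563-126625591 (gene on the minus strand, core from -111), Trib3 chr2:152344029-152344057 (gene on the minus strand, core from 13). In GENCODE M21 all these stretches but those of Chac1 and Gars overlap an exon of the gene itself, so they include transcribed bases. Of the members shown, Asns rose over 24 h, Trib3 fell, and Chac1 moved in opposite directions in the 2 genotypes, as described below.

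The time course in WT cells asked how these genes responded to T cell activation. At 3 h 18 members were higher and 1 was lower than at 0 h (edgeR quasi-likelihood test, Benjamini-Hochberg adjusted p under 0.05), beside 16.2% higher and 16.4% lower among the 15325 genes tested. After 6 h 23 were higher and 1 lower, beside 26.4% and 24.8%, and after 24 h 25 were higher and 3 lower, beside 36.6% and 34.8%. The median log2 change of the 32 members was 0.41, 0.9 and 1.69 at the 3 times, while that of all tested genes was 0.02, 0.02 and -0.01. The members thus had a larger share of rises and a smaller share of falls than all tested genes. In Aim2-/- cells 16, 23 and 25 members were higher and 2, 2 and 5 lower at 3 h, 6 h and 24 h, with median changes of 0.31, 0.66 and 1.36. The background there was 16.1% higher and 14.6% lower at 3 h, 28.5% and 22.7% at 6 h, and 36.8% and 33.5% at 24 h. The 2 courses are from different mice and share no libraries. Without the mouse labelled WT 1, 15, 25 and 28 members were called in WT cells at the 3 times, and without mouse WT 3 only 10 were called at 3 h.

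**Figure D1:**
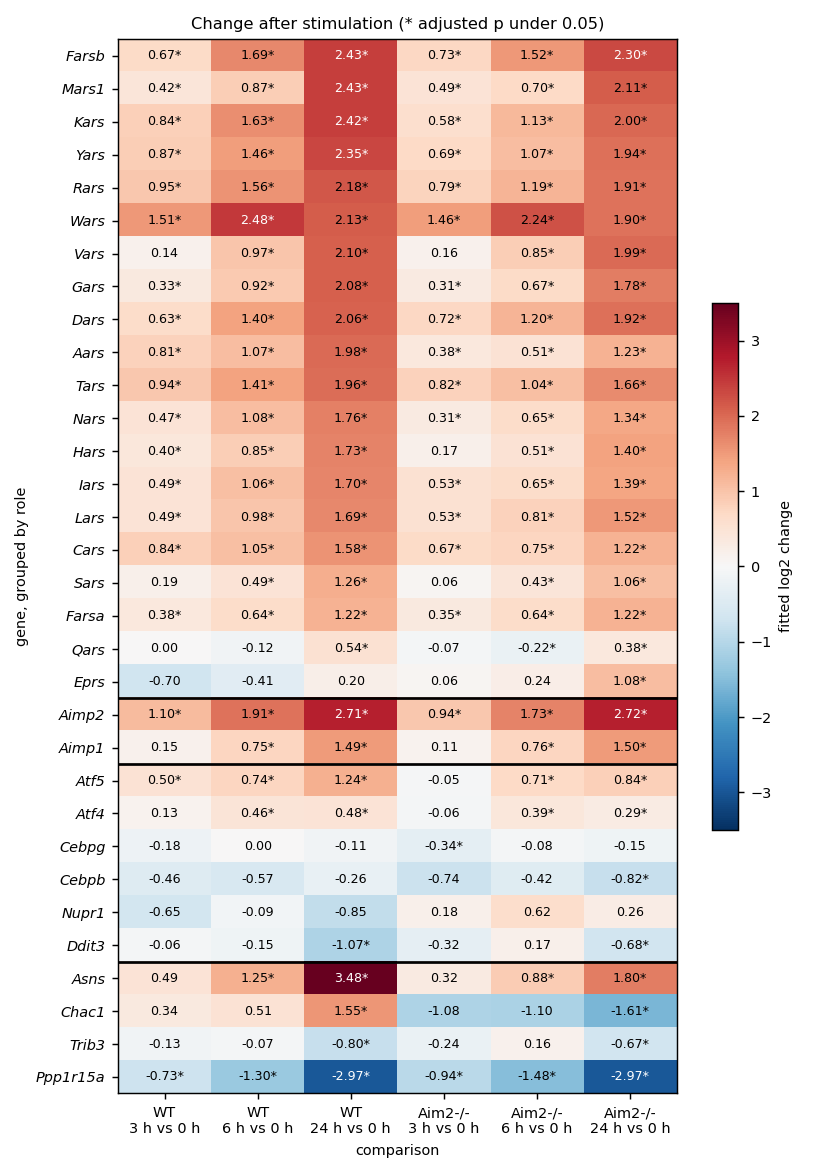
Fitted log2 change of each member (rows, grouped by role with the synthetases first) against 0 h for 3 h, 6 h and 24 h in WT and Aim2-/- cells (columns), 3 mice a group, with red for higher, blue for lower and an asterisk for an adjusted p under 0.05. The synthetase and scaffold rows deepen in red from 3 h to 24 h in both genotypes, except Wars, Qars and Eprs, while Ppp1r15a is blue throughout and Asns is the darkest red at 24 h in WT cells.

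Among the cytosolic synthetases, 16 of 20 rose by 3 h, 18 by 6 h and 19 by 24 h in WT cells, and none fell. Their median log2 change was 0.49, 1.06 and 1.97, and the changes of the called ones ran from 0.33 to 1.51 at 3 h, 0.49 to 2.48 at 6 h and 0.54 to 2.43 at 24 h. The summed level of the 20, in TPM, a like measure that also divides by transcript length, lay between 1779 and 2055 TPM at 0 h and between 5259 and 5756 TPM at 24 h over the 3 WT mice. Over the Aim2-/- mice it lay between 1662 and 1764 TPM at first and between 3982 and 5281 TPM at 24 h. In both genotypes 19 of the 20 had their highest group mean at 24 h and 1, Wars, at 6 h. Without the mouse labelled WT 1, the counts of WT synthetases higher and lower were 12 and 1, 18 and 1, and 19 and 0.

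In WT cells the synthetases with the largest change at 24 h were Farsb, Mars1, Kars and Yars. Farsb stood at 38.3, 40.4 and 39.8 CPM in WT cells at 0 h, 56.5, 77.2 and 55.3 CPM at 3 h, 128, 135 and 118 CPM at 6 h and 200, 228 and 212 CPM at 24 h. Farsb in Aim2-/- cells had 35.3, 34 and 38.6 CPM at 0 h, 49.7, 61.3 and 68.1 CPM at 3 h, 78.3, 121 and 109 CPM at 6 h and 158, 191 and 181 CPM at 24 h. Farsb (ENSMUSG00000026245, chr1:78417975-78488897) encodes the beta subunit of the phenylalanine enzyme, and its mice did not overlap between successive times in either genotype. Its log2 change at 24 h was 2.43 ± 0.15 (adjusted p = 7.32e-12) in WT and 2.3 ± 0.15 (adjusted p = 2.37e-11) in Aim2-/- cells. Mars1 stood at 65.7, 74.8 and 75 CPM in WT cells at 0 h, 97.7, 102 and 88.9 CPM at 3 h, 140, 127 and 126 CPM at 6 h and 355, 425 and 382 CPM at 24 h. Mars1 in Aim2-/- cells had 61.7, 67.4 and 68.4 CPM at 0 h, 93, 98.9 and 84.8 CPM at 3 h, 97.8, 116 and 107 CPM at 6 h and 213, 359 and 281 CPM at 24 h. Mars1 (ENSMUSG00000040354, chr10:127296221-127311786) charges methionine, including the initiator tRNA, and most of its rise came after 6 h. Its change at 24 h was 2.43 ± 0.14 (adjusted p = 1.77e-12) in WT and 2.11 ± 0.13 (adjusted p = 1.62e-11) in Aim2-/- cells, against only 0.87 and 0.7 at 6 h. The exons of Mars1 and of Ddit3 share 68 bases on opposite strands, and whether the counting used strand is not stated.

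Kars stood at 115, 116 and 122 CPM in WT cells at 0 h, 219, 222 and 190 CPM at 3 h, 347, 392 and 354 CPM at 6 h and 587, 664 and 639 CPM at 24 h. Kars in Aim2-/- cells had 122, 136 and 140 CPM at 0 h, 166, 221 and 209 CPM at 3 h, 229, 330 and 310 CPM at 6 h and 456, 600 and 537 CPM at 24 h. Kars (ENSMUSG00000031948, chr8:111993443-112011323), the lysine enzyme, increased from each time to the next without overlap in both genotypes, by 2.42 ± 0.13 (adjusted p = 1.56e-12) in WT and 2 ± 0.13 (adjusted p = 2.74e-11) in Aim2-/- cells over 24 h on the log2 scale. Yars stood at 38.4, 39.5 and 38.2 CPM in WT cells at 0 h, 77.3, 76.6 and 58 CPM at 3 h, 107, 111 and 102 CPM at 6 h and 190, 207 and 195 CPM at 24 h. Yars in Aim2-/- cells had 45, 43.3 and 43.6 CPM at 0 h, 65.1, 67.8 and 80.6 CPM at 3 h, 82.1, 96.9 and 98.8 CPM at 6 h and 149, 195 and 162 CPM at 24 h. Yars (ENSMUSG00000028811, chr4:129189760-129219607), the tyrosine enzyme, also separated all successive times, with a change over 24 h of 2.35 ± 0.11 (adjusted p = 2.82e-13) and 1.94 ± 0.11 (adjusted p = 5.06e-12). Per length Kars was the more abundant of the 2, at a mean of 139.2 TPM at 0 h and 648.7 TPM at 24 h in WT cells, against 34.47 and 152.9 TPM for Yars.

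The synthetases with the largest changes at 3 h in WT cells were Wars and Rars. Wars stood at 51.4, 50 and 56.5 CPM in WT cells at 0 h, 138, 145 and 168 CPM at 3 h, 268, 281 and 330 CPM at 6 h and 212, 234 and 249 CPM at 24 h. Wars in Aim2-/- cells had 57.4, 51.1 and 58.1 CPM at 0 h, 123, 160 and 176 CPM at 3 h, 237, 275 and 273 CPM at 6 h and 183, 228 and 209 CPM at 24 h. Wars (ENSMUSG00000021266, chr12:108860030-108894174), the tryptophan enzyme, which is also known to be induced by interferon gamma, was the synthetase with the largest change at 3 h and at 6 h in both genotypes. Its WT change was 1.51 ± 0.12 (adjusted p = 1.55e-08) by 3 h and 2.48 ± 0.13 (adjusted p = 1.15e-11) by 6 h. It was also the only synthetase called lower at 24 h than at 6 h, with a log2 change of -0.34 ± 0.12 (adjusted p = 0.0202) in WT and -0.34 ± 0.12 (adjusted p = 0.0219) in Aim2-/- cells. The 24 h values lay below the 6 h values without overlap in each genotype, though this fall was no longer called when any 1 of the 3 WT mice was left out, or Aim2-/- mouse 4. Rars stood at 74.1, 72.5 and 70.6 CPM in WT cells at 0 h, 137, 161 and 122 CPM at 3 h, 203, 224 and 212 CPM at 6 h and 305, 355 and 324 CPM at 24 h. Rars in Aim2-/- cells had 68.5, 76.3 and 80.9 CPM at 0 h, 106, 135 and 149 CPM at 3 h, 134, 197 and 186 CPM at 6 h and 246, 302 and 299 CPM at 24 h. Rars (ENSMUSG00000018848, chr11:35808381-35834506), the arginine enzyme, had changed by 0.95 ± 0.14 (adjusted p = 1.78e-05) at 3 h and by 2.18 at 24 h in WT cells. Its Aim2-/- values at 3 h and 6 h overlapped.

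**Figure D2:**
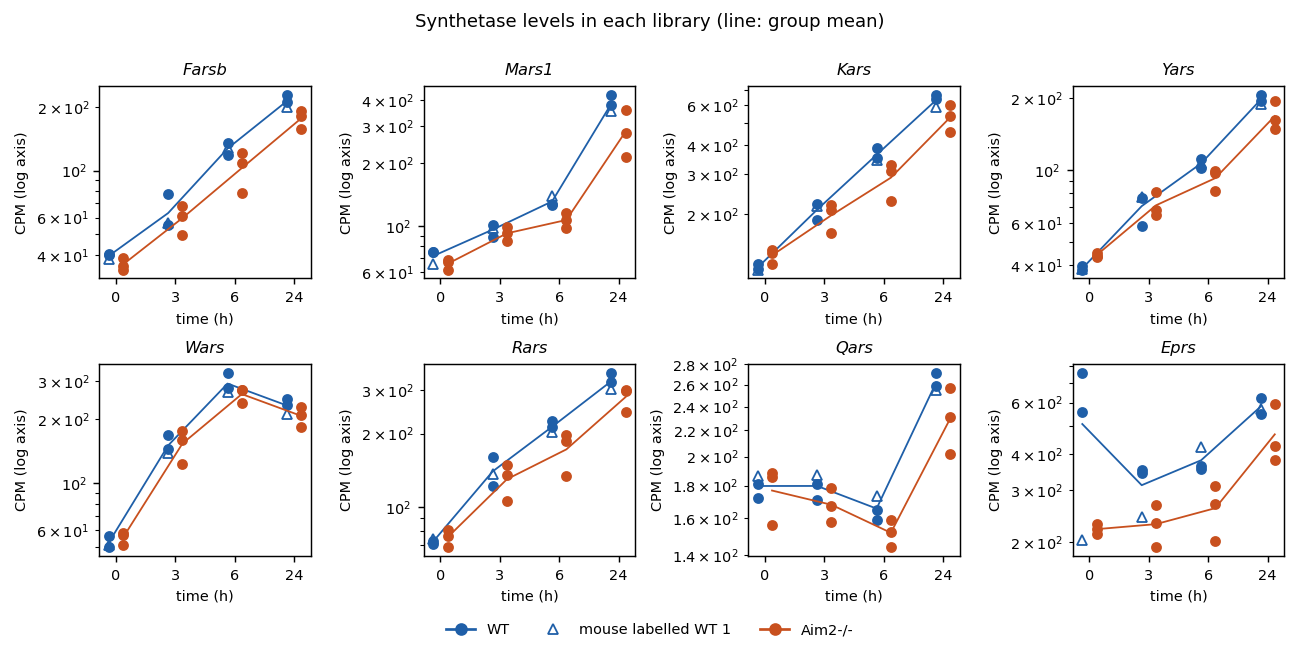
Level of 8 synthetases in each library (CPM, log axis) at the 4 times (evenly spaced, not to scale) with WT in blue, the mouse labelled WT 1 as open triangles, Aim2-/- in orange and lines through the means of 3 mice. Wars peaks at 6 h, Qars is highest at 24 h, and Eprs is spread from 203 to 761 CPM among the WT mice at 0 h.

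The other synthetases had smaller changes at 24 h in WT cells. The log2 changes at 24 h in WT and in Aim2-/- cells were for Dars 2.06 and 1.92, Aars 1.98 and 1.23, Gars 2.08 and 1.78, Vars 2.1 and 1.99 and Tars 1.96 and 1.66, all of them called. These charge aspartate, alanine, glycine, valine and threonine. The log2 changes at 24 h in WT and in Aim2-/- cells were for Nars 1.76 and 1.34, Hars 1.73 and 1.4, Iars 1.7 and 1.39, Lars 1.69 and 1.52 and Cars 1.58 and 1.22, all of them called. They act on asparagine, histidine, isoleucine, leucine and cysteine. The log2 changes at 24 h in WT and in Aim2-/- cells were for Sars 1.26 and 1.06 and Farsa 1.22 and 1.22, all of them called. Sars charges serine, and Farsa is the alpha subunit that pairs with Farsb, and its 24 h change of 1.22 was smaller than the 2.43 of Farsb. Neither Vars (0.14 ± 0.12, adjusted p = 0.427) nor Sars (0.19 ± 0.09, adjusted p = 0.108) was called at 3 h in WT cells. Hars and the mitochondrial enzyme gene Hars2 share 195 exon bases on opposite strands, and Farsb and Sgpp2 share 248, so part of such counts is uncertain.

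Qars and Eprs, whose values are given here because they stood apart once seen, did not follow the other 18. Qars stood at 187, 181 and 172 CPM in WT cells at 0 h, 187, 181 and 171 CPM at 3 h, 173, 164 and 159 CPM at 6 h and 255, 272 and 259 CPM at 24 h. Qars in Aim2-/- cells had 156, 188 and 186 CPM at 0 h, 167, 179 and 158 CPM at 3 h, 144, 159 and 152 CPM at 6 h and 202, 257 and 231 CPM at 24 h. Qars, the glutamine enzyme, changed by 0 ± 0.09 (adjusted p = 1) by 3 h and -0.12 ± 0.09 (adjusted p = 0.27) by 6 h in WT cells, and rose by 0.54 ± 0.09 (adjusted p = 1.01e-05) at 24 h. Its Aim2-/- level was called lower at 6 h, with a change of -0.22 ± 0.09 (adjusted p = 0.038), a call lost when libraries were scaled by their totals, and higher at 24 h, with a change of 0.38 ± 0.09 (adjusted p = 0.000595). Eprs stood at 203, 556 and 761 CPM in WT cells at 0 h, 243, 343 and 352 CPM at 3 h, 424, 362 and 356 CPM at 6 h and 573, 624 and 547 CPM at 24 h. Eprs in Aim2-/- cells had 213, 229 and 220 CPM at 0 h, 191, 267 and 231 CPM at 3 h, 202, 311 and 270 CPM at 6 h and 382, 593 and 426 CPM at 24 h. Eprs (ENSMUSG00000026615, chr1:185363044-185428360), the bifunctional enzyme for glutamate and proline, was split among WT mice at 0 h, where the mouse labelled WT 1 had the level of the Aim2-/- mice and the mice WT 3 and WT 4 were far higher. Its WT change was not called at any time (-0.7, -0.41 and 0.2 ± 0.29, adjusted p = 0.553), while in Aim2-/- cells it rose by 1.08 ± 0.29 (adjusted p = 0.00265) at 24 h. Without the mouse labelled WT 1, Eprs fell in WT cells by 0.92 at 3 h (adjusted p = 0.00435) and by 0.87 at 6 h (adjusted p = 0.00293), and stood at -0.17 at 24 h (adjusted p = 0.494). With the mouse as a replicate block and all mice kept, its WT change at 3 h was called (-0.63, adjusted p = 0.0347). Eprs lies 11.9 Mb from Aim2 on chromosome 1.

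Both scaffold genes of the multisynthetase complex rose. Aimp2 stood at 21.4, 22.1 and 21.6 CPM in WT cells at 0 h, 49, 51.7 and 39 CPM at 3 h, 73.9, 90.2 and 81 CPM at 6 h and 137, 150 and 140 CPM at 24 h. Aimp2 in Aim2-/- cells had 17.1, 20.7 and 24.1 CPM at 0 h, 33.3, 40.3 and 45.6 CPM at 3 h, 53.1, 74.7 and 77.3 CPM at 6 h and 120, 145 and 143 CPM at 24 h. Aimp2 (ENSMUSG00000029610, chr5:143902704-143909847) increased at every step in every mouse, by 2.71 ± 0.15 (adjusted p = 2.38e-12) in WT and 2.72 ± 0.15 (adjusted p = 3.65e-12) in Aim2-/- cells over 24 h, more than any synthetase. Aimp1 stood at 49.4, 53.3 and 49.3 CPM in WT cells at 0 h, 58.2, 59.7 and 50.8 CPM at 3 h, 81.6, 92.4 and 82.3 CPM at 6 h and 140, 149 and 138 CPM at 24 h. Aimp1 in Aim2-/- cells had 44.8, 52.5 and 58.4 CPM at 0 h, 55.4, 52 and 61 CPM at 3 h, 71.8, 91.9 and 101 CPM at 6 h and 147, 139 and 154 CPM at 24 h. Aimp1 (ENSMUSG00000028029, chr3:132660499-132684370) was not called at 3 h in either genotype (0.15 and 0.11), where the libraries of 0 h and 3 h overlapped, and had changed by 1.49 ± 0.11 (adjusted p = 1.26e-10) and 1.5 ± 0.11 (adjusted p = 1.58e-10) at 24 h. Exons of Aimp2 share 487 bases with Eif2ak1 on the opposite strand, and those of Aimp1 share 163 with Tbck.

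The transcription factors of the stress response changed little beside the synthetases. Of 6 regulators, Atf4, Atf5, Ddit3, Cebpb, Cebpg and Nupr1, 1 was higher at 3 h in WT cells, 2 at 6 h, and 2 higher and 1 lower at 24 h. Among Aim2-/- libraries 1 was lower at 3 h, 2 were higher at 6 h, and 2 were higher and 2 lower at 24 h. Atf4 stood at 350, 364 and 359 CPM in WT cells at 0 h, 414, 414 and 345 CPM at 3 h, 420, 535 and 522 CPM at 6 h and 479, 513 and 509 CPM at 24 h. Atf4 in Aim2-/- cells had 469, 389 and 467 CPM at 0 h, 431, 341 and 500 CPM at 3 h, 550, 539 and 643 CPM at 6 h and 588, 484 and 548 CPM at 24 h. Atf4 (ENSMUSG00000042406, chr15:80255184-80257541), the central activator, was the most abundant member per length at 0 h in WT cells, at a mean of 537.5 TPM, and was 0.48 ± 0.13 (adjusted p = 0.00178) higher at 24 h. All 24 h values of WT cells lay above those of 0 h. The change in Aim2-/- cells was 0.29 ± 0.13 (adjusted p = 0.0461), a call lost when any 1 of the 3 Aim2-/- mice was left out, and under 4 other alternatives. Atf5 stood at 7.4, 6.51 and 7.4 CPM in WT cells at 0 h, 11.7, 10.9 and 7.71 CPM at 3 h, 10.2, 12.5 and 12.9 CPM at 6 h and 17.5, 16.7 and 16.3 CPM at 24 h. Atf5 in Aim2-/- cells had 12.7, 10.3 and 10.9 CPM at 0 h, 12.6, 8.44 and 11.7 CPM at 3 h, 19.8, 14.4 and 21.6 CPM at 6 h and 22.9, 16.6 and 21.2 CPM at 24 h. Atf5 (ENSMUSG00000038539, chr7:44812256-44816658), a related factor that is also controlled at translation, rose from a low level by 1.24 ± 0.19 (adjusted p = 4.7e-06) in WT and 0.84 ± 0.18 (adjusted p = 0.000383) in Aim2-/- cells. Its WT call at 3 h (0.5 ± 0.19, adjusted p = 0.0438) was lost without either of the mice WT 1 and WT 3. Exons of Atf5 share 82 bases each with Nup62 and Il4i1 on the opposite strand. Over all libraries Nup62 had 70188 counts and Il4i1 5273, against 6647 for Atf5, so part of the Atf5 counts is uncertain.

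Ddit3, which encodes CHOP, a factor that promotes cell death under lasting stress, went the other way. Ddit3 stood at 21.3, 27.6 and 25.3 CPM in WT cells at 0 h, 23.2, 24.1 and 23.9 CPM at 3 h, 18.6, 23.1 and 25 CPM at 6 h and 9.68, 10.2 and 15.3 CPM at 24 h. Ddit3 in Aim2-/- cells had 28.3, 26.8 and 24.6 CPM at 0 h, 23.9, 18 and 21.7 CPM at 3 h, 36.1, 25.7 and 27.6 CPM at 6 h and 18.7, 13.5 and 17.5 CPM at 24 h. Ddit3 (ENSMUSG00000025408, chr10:127290774-127296288) was not called at 3 h and 6 h in WT cells (-0.06 and -0.15), and by 24 h it had fallen below every 0 h value in both genotypes, with log2 changes of -1.07 ± 0.18 (adjusted p = 1.52e-05) and -0.68 ± 0.17 (adjusted p = 0.00166). Cebpb stood at 9.05, 9.92 and 8.72 CPM in WT cells at 0 h, 8.43, 6.33 and 5.33 CPM at 3 h, 5.63, 7.01 and 6.04 CPM at 6 h and 6.89, 6.84 and 9.39 CPM at 24 h. Cebpb in Aim2-/- cells had 25.8, 15.6 and 16 CPM at 0 h, 16.7, 7.75 and 9.84 CPM at 3 h, 20.4, 9.34 and 13 CPM at 6 h and 12.5, 9.12 and 11 CPM at 24 h. Cebpb (ENSMUSG00000056501, chr2:167688915-167690418), a C/EBP partner of ATF4, was not called at any time in WT cells (-0.46, -0.57 and -0.26). Its Aim2-/- level was lower at 24 h, with a change of -0.82 ± 0.28 (adjusted p = 0.0144), a call lost without the 0 h library of mouse 1 or the 24 h library of mouse 2. Its exons share 312 bases with Tmem189 on the opposite strand. Cebpg, a C/EBP protein that dimerises with ATF4, lay between 52 and 75.3 CPM in all 24 libraries and was called in no comparison over time in WT cells. In Aim2-/- cells it was lower at 3 h than at 0 h (-0.34 ± 0.09, adjusted p = 0.00454) and higher at 6 h than at 3 h (0.26 ± 0.09, adjusted p = 0.0344). Nupr1, a small stress-induced nuclear protein gene, lay between 0.154 and 1.52 CPM in WT and between 0.275 and 3.78 CPM in Aim2-/- libraries, with some values near the floor of 3 counts, and no change of it was called.

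The largest changes of all members at 24 h in WT cells were those of Asns and Ppp1r15a, in opposite directions. Asns stood at 5, 2.48 and 2.94 CPM in WT cells at 0 h, 6.57, 4.77 and 3.32 CPM at 3 h, 11.4, 6.62 and 6.82 CPM at 6 h and 36.6, 37.3 and 42.6 CPM at 24 h. Asns in Aim2-/- cells had 13.7, 6.11 and 14.2 CPM at 0 h, 19.1, 7.8 and 15.6 CPM at 3 h, 24.5, 14.7 and 23.2 CPM at 6 h and 40.6, 41.2 and 36.4 CPM at 24 h. Asns (ENSMUSG00000029752, chr6:7675169-7693254), asparagine synthetase, which makes asparagine and charges no tRNA, is a classic ATF4 target. In WT cells it stood 3.48 ± 0.37 (adjusted p = 3.52e-08) higher at 24 h on the log2 scale, the largest rise of any member, and in Aim2-/- cells, from a higher start, 1.8 ± 0.34 (adjusted p = 7.98e-05). All 24 h values of the 6 mice lay between 36.4 and 42.6 CPM, while the 0 h values ran from 2.48 to 14.2 CPM. Ppp1r15a stood at 281, 321 and 378 CPM in WT cells at 0 h, 180, 205 and 204 CPM at 3 h, 109, 150 and 140 CPM at 6 h and 40.3, 41.9 and 42.9 CPM at 24 h. Ppp1r15a in Aim2-/- cells had 378, 343 and 405 CPM at 0 h, 192, 198 and 199 CPM at 3 h, 135, 129 and 140 CPM at 6 h and 52.1, 42.5 and 49.4 CPM at 24 h. Ppp1r15a (ENSMUSG00000040435, chr7:45522916-45526268) encodes GADD34, which directs PP1 to eIF2alpha and so reverses its phosphorylation. It fell at each step in both genotypes without overlap, with a log2 change of -2.97 ± 0.12 (adjusted p = 3.17e-14) in WT and -2.97 ± 0.12 (adjusted p = 4.46e-14) in Aim2-/- cells over 24 h. Per length its WT mean went from 300.8 to 33.46 TPM, while that of Asns went from 4.508 to 43.43 TPM.

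Chac1 stood at 1.45, 0.258 and 0.456 CPM in WT cells at 0 h, 1.85, 0.519 and 0.374 CPM at 3 h, 1.91, 0.438 and 0.73 CPM at 6 h and 2.03, 2 and 2.36 CPM at 24 h. Chac1 in Aim2-/- cells had 7.75, 5.32 and 5.46 CPM at 0 h, 2.36, 3.26 and 3.15 CPM at 3 h, 3.69, 2.96 and 1.97 CPM at 6 h and 2.49, 1.96 and 1.59 CPM at 24 h. Chac1 (ENSMUSG00000027313, chr2:119351229-119354381), an enzyme that degrades glutathione and a target of ATF4, was low in the WT mice 3 and 4 at 0 h. At 24 h the mice of both genotypes lay between 1.59 and 2.49 CPM and overlapped, reached by a called rise in WT cells, 1.55 ± 0.57 (adjusted p = 0.0205), and a called fall in Aim2-/- cells, -1.61 ± 0.53 (adjusted p = 0.0101). The WT call was lost without mouse WT 3 or without mouse WT 4, and the Aim2-/- call without mouse 4. Trib3 stood at 7.15, 8.06 and 10.2 CPM in WT cells at 0 h, 5.32, 7.08 and 10.8 CPM at 3 h, 5.63, 8.91 and 9.79 CPM at 6 h and 4.31, 4.11 and 6.21 CPM at 24 h. Trib3 in Aim2-/- cells had 7.31, 7.24 and 8.81 CPM at 0 h, 8, 5.59 and 6.12 CPM at 3 h, 10.7, 9.06 and 6.3 CPM at 6 h and 6.16, 3.88 and 4.67 CPM at 24 h. Trib3 (ENSMUSG00000032715, chr2:152337422-152344032), a pseudokinase that restrains ATF4 and CHOP, was lower at 24 h, with a change of -0.8 ± 0.28 (adjusted p = 0.0143) in WT and -0.67 ± 0.28 (adjusted p = 0.0378) in Aim2-/- cells. These calls were lost without mouse WT 3, and without Aim2-/- mouse 2 or mouse 4.

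**Figure D3:**
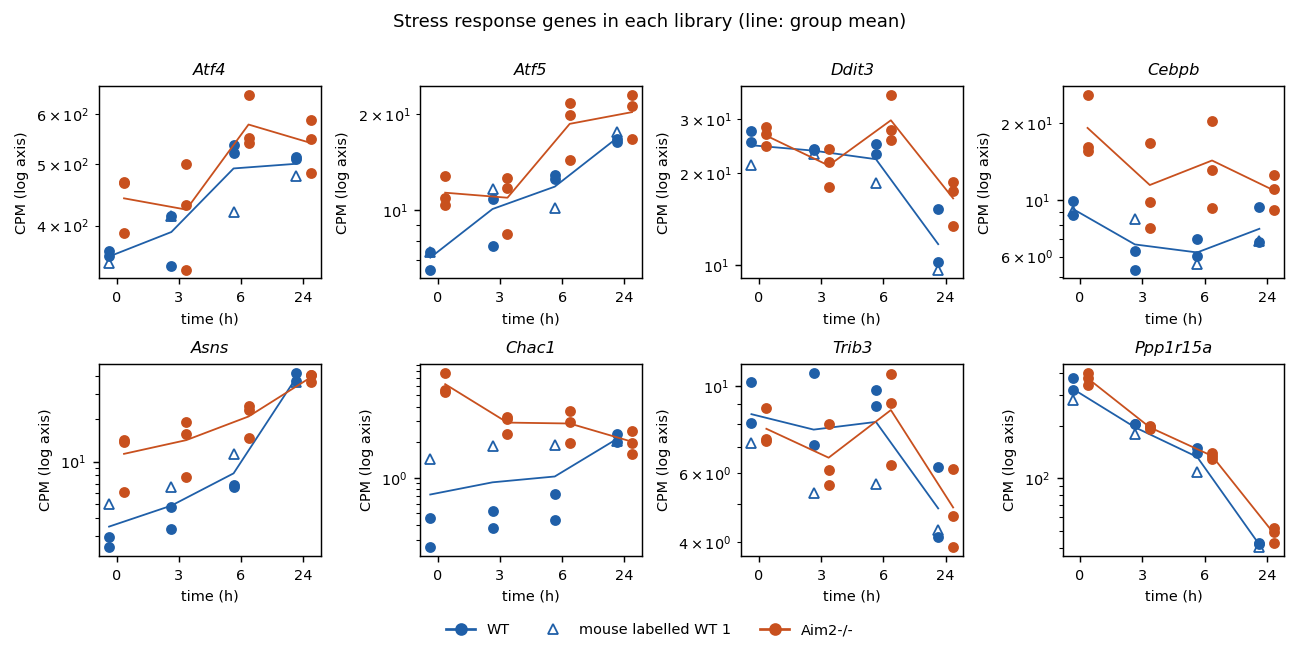
Level of 8 stress response genes in each library (CPM, log axis) at the 4 times (evenly spaced, not to scale), with WT in blue, the mouse labelled WT 1 as open triangles, Aim2-/- in orange and lines through the means of 3 mice. Asns and Chac1 start higher in Aim2-/- cells and overlap with WT at 24 h, and Ppp1r15a falls alike in both genotypes.

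The steps between successive times showed when the changes took place. From 3 h to 6 h 18 members were higher and 1 lower in WT cells, beside 14.2% and 11.5% of all tested genes, and the same numbers, 18 and 1, stood beside 13.4% and 9.89% in Aim2-/- cells. From 6 h to 24 h 22 were higher and 4 lower in both genotypes, beside 29.6% and 28% in WT and 27.4% and 27% in Aim2-/- cells. Synthetases made up 16 of the 18 in WT and 12 of the 18 in Aim2-/- cells in the first of these steps, and 18 of the 22 and 19 of the 22 in the second. In Aim2-/- cells the 19 calls from 3 h to 6 h became 10 without mouse 2 or without mouse 4, and 5 when only the libraries compared were fitted. The member lower from 3 h to 6 h was Ppp1r15a in both genotypes. Those lower from 6 h to 24 h were Wars, Ddit3, Trib3 and Ppp1r15a in both.

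The genotype comparison asked whether loss of AIM2 was accompanied by another level of these genes at each time. At 0 h 5 members were higher in Aim2-/- than in WT cells and 1 was lower, beside 3.24% and 1.99% of all tested genes. At 6 h 3 were higher and 2 lower, beside 8.78% and 7.01%, so both shares of members were close to the background there. At 3 h and at 24 h none was called, beside 0.294% and 0.666% called in either direction, while 4 and 12 members had an unadjusted p under 0.05, DESeq2 called 1 and 3, and limma-voom called 0 and 0. The counts at 0 h and 6 h depended on which mouse was left out. Without mouse WT 3, or without mouse WT 4, no member was called at any time (edgeR), while without Aim2-/- mouse 2 there were 8, 3, 12 and 10 at 0 h, 3 h, 6 h and 24 h. The fits without mouse WT 3 or WT 4 kept the mouse labelled WT 1 in a smaller WT group. Its Aim2 level lay with or near that of the Aim2-/- mice, so these fits cannot show how far the calls rest on mouse WT 3 or WT 4 alone. Without the mouse labelled WT 1 there were 4, 2, 3 and 0, without Aim2-/- mouse 1 there were 2, 0, 1 and 0, and without Aim2-/- mouse 4 there were 1, 0, 0 and 0.

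Of the 5 members higher in Aim2-/- cells at 0 h, Chac1, Asns, Cebpb and Atf5 belong to the stress response. At 0 h the log2 difference of Chac1 was 3.08 ± 0.58 (adjusted p = 0.00767), and the lowest Aim2-/- library, at 5.32 CPM, lay above the highest WT library, at 1.45 CPM. Asns differed at 0 h by 1.7 ± 0.36 (adjusted p = 0.0149), then at 6 h by 1.33 ± 0.34 (adjusted p = 0.0177), and both times the genotypes did not overlap. At 24 h its difference was 0.02 ± 0.32 (adjusted p = 0.984). Cebpb differed at 0 h and 6 h by 1.05 ± 0.28 (adjusted p = 0.0382) and 1.2 ± 0.29 (adjusted p = 0.0147), and Atf5 by 0.67 ± 0.19 (adjusted p = 0.0414) and 0.65 ± 0.18 (adjusted p = 0.0255). In these genes, too, the 2 genotypes stood apart at 0 h and 6 h. Without the mouse labelled WT 1 the differences were 4.09 for Chac1 (adjusted p = 4.79e-05) and 2.06 for Asns (adjusted p = 0.00707) at 0 h, and at 6 h they were 2.29 (adjusted p = 0.00337), 1.63 (adjusted p = 0.0143) and, for Cebpb, 1.13 (adjusted p = 0.0454). For Chac1 the WT side at 0 h then rests on only 5 and 9 counts, in the mice WT 3 and WT 4. Aars then differed by 0.45 (adjusted p = 0.0174) at 0 h, while Atf5 was called at neither time and Cebpb no longer at 0 h.

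Among the synthetases the differences went both ways with time. Aars stood at 98.5, 87.7 and 95.3 CPM in WT cells at 0 h, 174, 158 and 160 CPM at 3 h, 210, 193 and 189 CPM at 6 h and 344, 391 and 373 CPM at 24 h. Aars in Aim2-/- cells had 134, 120 and 122 CPM at 0 h, 161, 169 and 158 CPM at 3 h, 174, 181 and 182 CPM at 6 h and 251, 337 and 296 CPM at 24 h. Aars (ENSMUSG00000031960, chr8:111033144-111057664) was higher in Aim2-/- cells at 0 h, by 0.42 ± 0.09 (adjusted p = 0.0149), whereas all its Aim2-/- values lay below the WT values at 6 h and at 24 h, with differences that were not called (-0.14 ± 0.09, adjusted p = 0.265, and -0.33 ± 0.09, adjusted p = 0.0746). Iars and Dars, given because they were called, were lower in Aim2-/- cells at 6 h, with differences of -0.58 ± 0.14 (adjusted p = 0.0164) and -0.35 ± 0.1 (adjusted p = 0.0313). For Iars the WT mice had 206, 175 and 179 CPM and the Aim2-/- mice 109, 142 and 123 CPM, and for Dars 165, 167 and 154 CPM against 105, 143 and 132 CPM. Neither was called without the mouse labelled WT 1. Eprs was lower in Aim2-/- cells at 0 h, with a difference of -1.2 ± 0.29 (adjusted p = 0.0277), or of -1.58 (adjusted p = 0.000265) without the mouse labelled WT 1, whose own value of 203 CPM lay just under the Aim2-/- range of 213 to 229 CPM.

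Counted over all members at 0 h, 10 had every Aim2-/- library above every WT library and 1 the reverse, while at 6 h 7 were above and 13, all of them synthetases, below. Over all tested genes such separation was seen in 14.1% and 14.4% at 0 h and in 18.6% and 17% at 6 h. At 3 h the member counts were 2 and 1, beside 7.8% and 7.31% of all tested genes, and at 24 h they were 1 and 6, beside 11.1% and 10.2%. With 3 mice against 3 an exact permutation test of a single gene cannot go below p = 0.1. The 13 at 6 h were Aars, Dars, Eprs, Iars, Kars, Lars, Mars1, Nars, Qars, Rars, Tars, Vars and Yars. In the order of the 4 times, the median difference over the 32 members was 0.09, -0.06, -0.14 and -0.16, beside -0.01, 0, 0.05 and 0.01 over all tested genes.

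**Figure D4:**
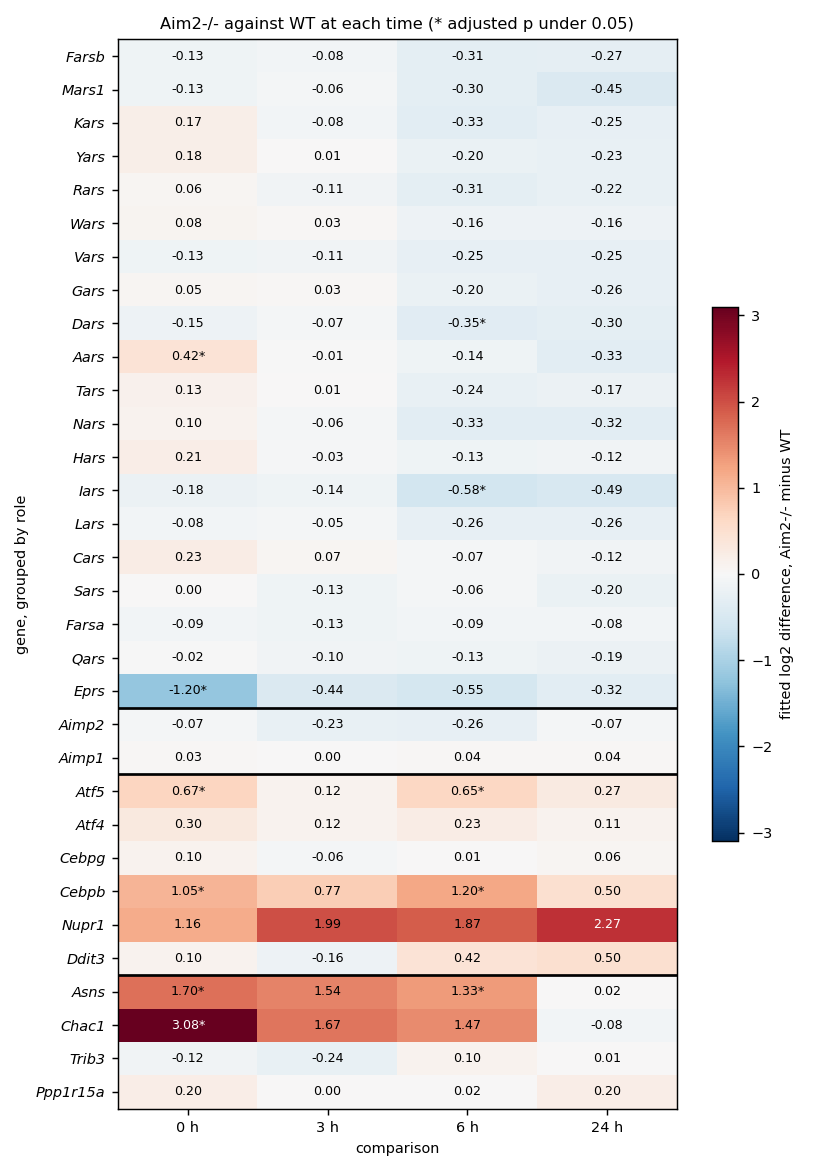
Fitted log2 difference of Aim2-/- minus WT for each member (rows, grouped by role) at 0 h, 3 h, 6 h and 24 h (columns), 3 mice a group, with red for higher in Aim2-/- and an asterisk for an adjusted p under 0.05. The 11 asterisks stand at 0 h and 6 h only, and the large values of Nupr1, a gene of low counts, carry none.

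Whether the response itself differed between genotypes was tested with the interaction of genotype and time. No member was called at 3 h, 6 h or 24 h in the edgeR test, beside 0%, 0.0261% and 0% of all tested genes, while 2, 6 and 9 members had an unadjusted p under 0.05, DESeq2 called 0, 1 and 3, and limma-voom 0, 0 and 1. For Chac1 at 24 h the interaction was -3.16 ± 0.78 (adjusted p = 0.119), for Asns -1.68 ± 0.49 (adjusted p = 0.166) and for Aars -0.74 ± 0.13 (adjusted p = 0.059), all 3 toward a smaller rise or a fall in Aim2-/- cells. Libraries of a mouse deviated together, and with the mouse as a replicate block 2 members were called at 6 h, Aars (-0.56, adjusted p = 0.0156) and Kars (-0.52, adjusted p = 0.013). At 24 h 4 were called with this block: Aars (-0.75, adjusted p = 0.00556), Kars (-0.43, adjusted p = 0.0365), Chac1 (-3.4, adjusted p = 0.00383) and Asns (-1.64, adjusted p = 0.0151). Without the mouse labelled WT 1 and without the block, Aars (-0.83, adjusted p = 0.027) and Chac1 (-4.2, adjusted p = 0.00272) were called at 24 h. This Chac1 value rests on only 5 and 9 counts at 0 h in the mice WT 3 and WT 4. Without Aim2-/- mouse 2, 2 were called at 24 h. With the mouse as a block in limma-voom, 6, 2, 9 and 0 members differed between genotypes at 0 h, 3 h, 6 h and 24 h.

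Markers of other cells moved with the same comparison. The summed level of the plasma cell markers Jchain, Sdc1, Mzb1 and Tnfrsf17 was 41.33 to 167.6 CPM in WT and 386.3 to 763.1 CPM in Aim2-/- cells at 0 h, with 2 of 4 called higher, and 30.77 to 146.9 against 346.3 to 765.8 CPM at 6 h, with 4 of 4 called higher. At 24 h it was 9.919 to 27.46 against 47.2 to 228.7 CPM. Among WT mice at 0 h the one labelled WT 1 had the highest sum of these markers, against 54.48 and 41.33 CPM in the mice WT 3 and WT 4. It also had the highest Asns and Chac1. Cebpb, however, was highest in WT 3 (9.92 CPM), and Atf5 was 7.4 CPM in both WT 1 and WT 4. Aim2-/- mouse 2 had the lowest sum of the Aim2-/- mice at 0 h and the lowest Asns, Chac1, Cebpb and Atf5. At 3 h its sum was again the lowest (219.1 CPM), as were its Asns, Cebpb and Atf5, but its Chac1 was the highest (3.26 CPM). At 6 h its sum (346.3 CPM), Asns, Cebpb and Atf5 were also the lowest, while its Chac1 (2.96 CPM) lay between the others. Among WT mice at 6 h the one labelled WT 1 had the highest sum, Asns and Chac1 but the lowest Cebpb and Atf5. All 5 basophil and mast cell markers, Mcpt8, Prss34, Cpa3, Fcer1a and Ms4a2, were called higher at 0 h, 6 h and 24 h, with sums at 0 h of 7.201 to 9.976 CPM in WT and 53.33 to 102.3 CPM in Aim2-/- cells. B cell markers (3 of 6 called higher at 0 h, 3.854 to 5.701 against 14.13 to 41.6 CPM), monocyte and macrophage markers (2 of 7, 32.66 to 54.94 against 100.5 to 333.1 CPM) and neutrophil markers (2 of 8, 25.7 to 27.59 against 104.4 to 292.7 CPM) followed. No marker of erythroid, dendritic, NK or CD8 T cells was called between genotypes at any time, and 4 of 5 dendritic cell markers were tested. The lists still shifted at 0 h. Erythroid sums were 7.708 to 71.8 CPM in WT and 21.12 to 336.6 CPM in Aim2-/- cells, and dendritic sums 2.45 to 4.497 against 4.481 to 20.68 CPM. The median log2 difference at 0 h was 2.65 for erythroid and 1.93 for dendritic markers, against 0.7 for NK and 0.62 for CD8 T cell markers. The part of these cells in the differences of Asns, Chac1, Cebpb and Atf5 was not tested.

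Genes around the members were counted from lists set up for the same pathways, beside the percentages given above. Of 17 mitochondrial synthetases, which charge tRNA inside mitochondria, 3, 7 and 15 were higher and 1, 3 and 1 lower at 3 h, 6 h and 24 h in WT cells, and 4, 8 and 15 higher and 1, 0 and 1 lower in Aim2-/- cells. At 24 h in WT cells Rars2 (2.44) and Yars2 (1.63) were among those that rose on the log2 scale and Hars2 was lower (-0.49). Of 10 other genes of tRNA charging and export, 7 were higher at 24 h in WT and 8 in Aim2-/- cells and 0 lower in both. These included the third scaffold Eef1e1 (2.9), the mitochondrial amidotransferase subunit Gatb (2.62) and the tRNA exporter Xpot (1.65) in WT cells.

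Of 16 genes of eIF2, its exchange factor eIF2B and the eIF2alpha kinases, 10 were higher and 2 lower at 24 h in WT cells and 8 and 3 in Aim2-/- cells. The eIF2B subunits Eif2b3 (3.2) and Eif2b1 (2.3) and the eIF2alpha gene Eif2s1 (1.99) rose in WT cells, while the kinase gene Eif2ak3, which encodes PERK, fell by 2.82 and Impact, an inhibitor of GCN2, by 1.19 on the log2 scale. Of 28 further ATF4 targets, 26 were tested, and 9, 15 and 19 were higher and 3, 4 and 5 lower at the 3 times in WT cells, against 8, 14 and 17 and 5, 4 and 5 in Aim2-/- cells. Among the genes that rose by 24 h in WT cells were Psat1 of serine synthesis, with a log2 change of 3.97, and Cth and Cbs of cysteine synthesis. Cth and Cbs did not exceed 0.103 and 0.203 CPM in WT cells at 0 h, at or near the floor, so their fold changes are not given, and at 24 h they lay at 3.04 to 4.01 and 1.75 to 1.9 CPM. Among the falls were Jdp2 (-2.81), Bbc3 (-2.45), a promoter of apoptosis, and Ddit4 (-1.42), an inhibitor of mTORC1. Of 16 targets of ATF6 and XBP1, the factors of the unfolded protein response of the endoplasmic reticulum, 4, 11 and 11 were higher and 7, 4 and 5 lower in WT cells, and 1, 8 and 11 higher and 7, 4 and 5 lower in Aim2-/- cells. Sdf2l1 (4.08), Creld2 (1.89) and Pdia6 (1.68) rose in WT cells by 24 h and Dnajb9 (-2.14), Edem1 (-0.64) and Sel1l (-0.62) fell. At 0 h the lists also held genes higher in Aim2-/- cells, 5 of the 26 ATF4 targets (Pycr1 at 1.95, Stc2, whose lowest WT library was under the floor, Phgdh and Slc3a2 each at 0.54, and Aldh18a1 at 0.28) and Creld2 (0.63). Lower at 0 h was 1 mitochondrial synthetase. The background was 3.24% higher and 1.99% lower. At 6 h 4 ATF4 targets and 1 gene of tRNA charging and export were higher. Lower at 6 h were 4 ATF4 targets, 1 mitochondrial synthetase, 2 genes of the eIF2 list and 2 ATF6 and XBP1 targets. The background was 8.78% higher and 7.01% lower. These list counts were made with all mice kept.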

How the data were processed

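RNA sequencing was performed on splenic CD4+ T cells, enriched by negative selection per the general methods of the study, with a stranded mRNA kit. The RNA sequencing in the study's figures is of other T cell populations, so its methods were read as general ones. The authors aligned reads with STAR to GRCm38 and deposited raw read counts per gene for 54446 Ensembl identifiers, without normalization. Tool versions and the strand setting of counting are not given in the sources used here, so genes that overlap on opposite strands are uncertain. Symbols, positions and lengths were taken from GENCODE M21 (54409 identifiers matched), and promoter windows from RefSeq.

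From these counts, edgeR 4.0.16 (R 4.3.3) was fitted to all 24 libraries in 8 groups, with TMM factors and filterByExpr (minimum count 10, 15325 genes kept, common dispersion 0.0346). Two-sided quasi-likelihood tests were adjusted after Benjamini and Hochberg over all tested genes of a comparison. CPM and TPM describe levels, and the 3-count floor covers counting error only. No libraries of a group agreed within sampling noise (chi-square per degree of freedom at least 7.12). On simulated counts for WT 3 h against 0 h, with 15325 genes, 88 of 100 genes changed 2-fold and 97 of 100 changed 4-fold were recovered, and 10 unchanged genes were called. The changed genes were drawn only from genes above a minimum mean count, so this recovery does not cover genes of low counts such as Nupr1.

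The labels give each mouse at all 4 times. Deviations from group means correlated positively in all 36 pairs of libraries of a mouse (r 0.139 to 0.567) and between -0.432 and 0.0742 for other mice of that genotype, so mice pair the times. The same number in both genotypes (r -0.165 to 0.3) was not taken as a pair. Mice are the replicates. The main fit had no block for the mouse, so its p-values measure the spread between libraries of a group, pooled over the 8 groups. They take no account of this pairing, and fits with the mouse as a replicate block are given as alternatives.

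Members and lists were chosen with earlier results of these data known. Values in every library are given for the members with the largest changes in each role (up to 4 at 24 h and 2 at 3 h in WT cells) and the 4 with the lowest adjusted p between genotypes, and of the other lists up to 3 rises and 3 falls, of which 1 gene, like 1 promoter stretch, is not reported here. Eprs, Qars, Iars and Dars were added after their values were seen. Alternatives were RLE and library totals scaling, DESeq2 1.42.0, limma-voom (limma 3.58.1), other filters, only the libraries compared, replicate blocks, and leaving out each library or mouse.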

Additional observations from a re-analysis of the deposited data

How the results depend on the processing

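None of the called changes counted here changed direction under an alternative. Eprs, which was not called in WT cells, did: its 24 h change of 0.2 was -0.17 without the mouse labelled WT 1, and its 6 h change of -0.41 was 0.03 without mouse WT 4. Changes over time were followed only for the members named for their largest changes or for a call between genotypes, not for every member. Of the 147 called changes over time of these members, 111 were called under every alternative tried, and 154 of 2646 alternative values missed the threshold. Of 11 called differences between genotypes, 0 were called under every alternative, and 91 of 231 values missed it. The alternatives for genotype include the fits without mouse WT 3 or WT 4, which keep the mouse labelled WT 1 in a smaller WT group. Scaling by library totals shifted the median of all genes by 0.11 to 0.12 (log2) in WT 3 h and Aim2-/- 3 h and 6 h against 0 h.

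Leaving out 1 library or mouse gave 10 to 19 members called for WT 3 h against 0 h, 10 to 19 for Aim2-/- 6 h against 3 h, 0 to 8 between genotypes at 0 h, 0 to 3 at 3 h, 0 to 12 at 6 h, 0 to 11 at 24 h, and 0 to 2 for the interaction at 24 h. For Aim2-/- 6 h against 3 h, testing every gene with a count gave 10, and fitting only the libraries compared gave 5. Between genotypes at 0 h the latter gave 3. At 3 h DESeq2 gave 1 and every gene with a count 3. At 6 h DESeq2 gave 9, every gene with a count 13, a mean of at least 1 CPM 8, and only the libraries compared 3. At 24 h DESeq2 and every gene with a count each gave 3. For the interaction DESeq2 gave 1 at 6 h and 3 at 24 h, where limma-voom gave 1 and every gene with a count 3. The cause was not tested, except that fewer libraries enter a fit without 1 of them.

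With the mouse as a replicate block, 23, 25 and 28 members were called in WT and 21, 27 and 30 in Aim2-/- cells at 3 h, 6 h and 24 h against 0 h, and 2 and 4 for the interaction at 6 h and 24 h. As a random block in limma-voom it gave 2 between genotypes at 3 h and 9 at 6 h. The replicate number as a replicate block, which marks no shared animal, gave 4, 16 and 13 between genotypes at 3 h, 6 h and 24 h, and 2 and 3 for the interaction at 6 h and 24 h. Depth limits Nupr1 and, before 24 h, Chac1 in WT mice 3 and 4, where some values lie near the floor.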
